A study of Mus musculus with 17 samples.

Results

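The 39 DNA replication genes described here encode the proteins that license origins, open the helix, copy both strands, join the fragments and supply nucleotides, together with Uhrf1, a chromatin factor that works behind the fork. They were taken by name from a fixed list that was chosen with earlier results of these data known. Every name matched 1 gene. The count table held 56748 genes, of which 15196 had enough counts to be tested, and all 39 replication genes were among those tested. The 3 conditions were surfaces of polydimethylsiloxane, a silicone rubber, on which E11 cells, a mouse podocyte line, had been grown. HF (6 libraries) was a high fractal relief taken from tracings of healthy glomerular histology, RT (6 libraries) was a round relief that is not fractal, and NT (5 libraries) had no relief. All 17 libraries were made from the same cell line with no other treatment named, so RT and NT served as the relief and flat controls of HF. The labels give no passage, density, time or temperature of culture, and they do not say what separates the replicates. The p-values below therefore compare surfaces with a library-to-library spread that may be technical.

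Before S phase, the origin recognition complex, Cdc6 and Cdt1 load the Mcm2 to Mcm7 ring onto DNA, and Cdc45, the GINS proteins and Mcm10 turn it into a moving helicase. Polymerase alpha with primase lays down primers, polymerases epsilon and delta extend them on the sliding clamp Pcna, and Fen1 and Lig1 finish the lagging strand. Many of these genes are transcribed late in G1 under E2F factors, so their mRNA is used as a sign of cells that enter the cycle. Mature podocytes in the glomerulus are regarded as having left the cycle, whereas podocyte lines divide in culture. In RNA from a whole culture, a lower share of cycling cells and less RNA per cycling cell cannot be told apart.

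Total counts ran from 14.9 to 24.1 M per library, with means of 17.1 ± 0.548 M on HF, 19.2 ± 3.39 M on RT and 16.7 ± 1.37 M on NT (SD). No difference between surfaces was detected (exact two-sided permutation tests of the 3 pairs, smallest p = 0.182), which does not show equal depth. Levels are in CPM, the raw count per 1 M of the library total after TMM scaling. Of 9 podocyte markers found in the table, 7 averaged at least 1 CPM on every surface, among them Synpo, Wt1 and Podxl, whereas Tcf21 was at 0 in every library. Of 6 tubule markers 3 averaged at least 1 CPM, Cdh16, Lrp2 and Slc12a1 (means of 976, 399 and 3.36 CPM over all libraries), while Slc34a1 and Aqp2 were at 0 in every library, and endothelial markers summed to at most 1.15 CPM in any library. All 18 mitosis markers averaged above 1 CPM on every surface.

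Of the 39 replication genes, 4 rose on HF against NT, 3 changed on RT against NT (2 rose and 1 fell) and 0 changed on HF against RT. The first count was 10.3% of the set, where 2.33% of all genes tested changed, 1.5% rose and 0.829% fell in the same comparison. On RT against NT, 3.97% of all genes changed, 2.53% rose and 1.44% fell, and on HF against RT 0.211% changed, 0.132% upward and 0.079% downward. These counts are from edgeR's quasi-likelihood F test at a Benjamini-Hochberg adjusted p under 0.05 over all 15196 genes. The genes that rose on HF were Mcm2, Mcm5, Pole and Uhrf1, by 1.18-fold to 1.30-fold. The genes that changed on RT were Rrm2 and Uhrf1, which rose, and Dut, which fell. The table lists Mcm2 as ENSMUSG00000002870, Mcm5 as ENSMUSG00000005410, Pole as ENSMUSG00000007080, Uhrf1 as ENSMUSG00000001228, Rrm2 as ENSMUSG00000020649 and Dut as ENSMUSG00000027203. HF against NT and RT against NT share the same 5 NT libraries, so their values are given side by side and their likeness is not counted as a result.

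The set leaned upward on HF without most members passing the test. Because the list was chosen with earlier results known, neither this lean nor the share of members called was tested. The fold change was positive for 34 of 39 members on HF against NT, where 49% of all genes tested were positive, and the median log2 fold change was 0.12, against -0.0025 over all genes. On RT against NT 25 of 39 members were positive, where 49.1% of all genes were, with a median of 0.033 against -0.0021. On HF against RT 32 of 39 members were positive, where 49.6% of all genes were, with a median of 0.055 against -0.0007. Under RLE scaling or total counts without scaling factors, 35 and 33 members were positive on HF against NT. At an unadjusted p under 0.05, 10 members were higher and 1 was lower on HF against NT, where 7.61% and 6.63% of all genes were. In the RT comparison 8 were higher and 1 was lower, where 9.11% and 8% of all genes were. The plot of fold changes by role shows where in the machinery the members past the threshold lie.

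**Figure D1:**
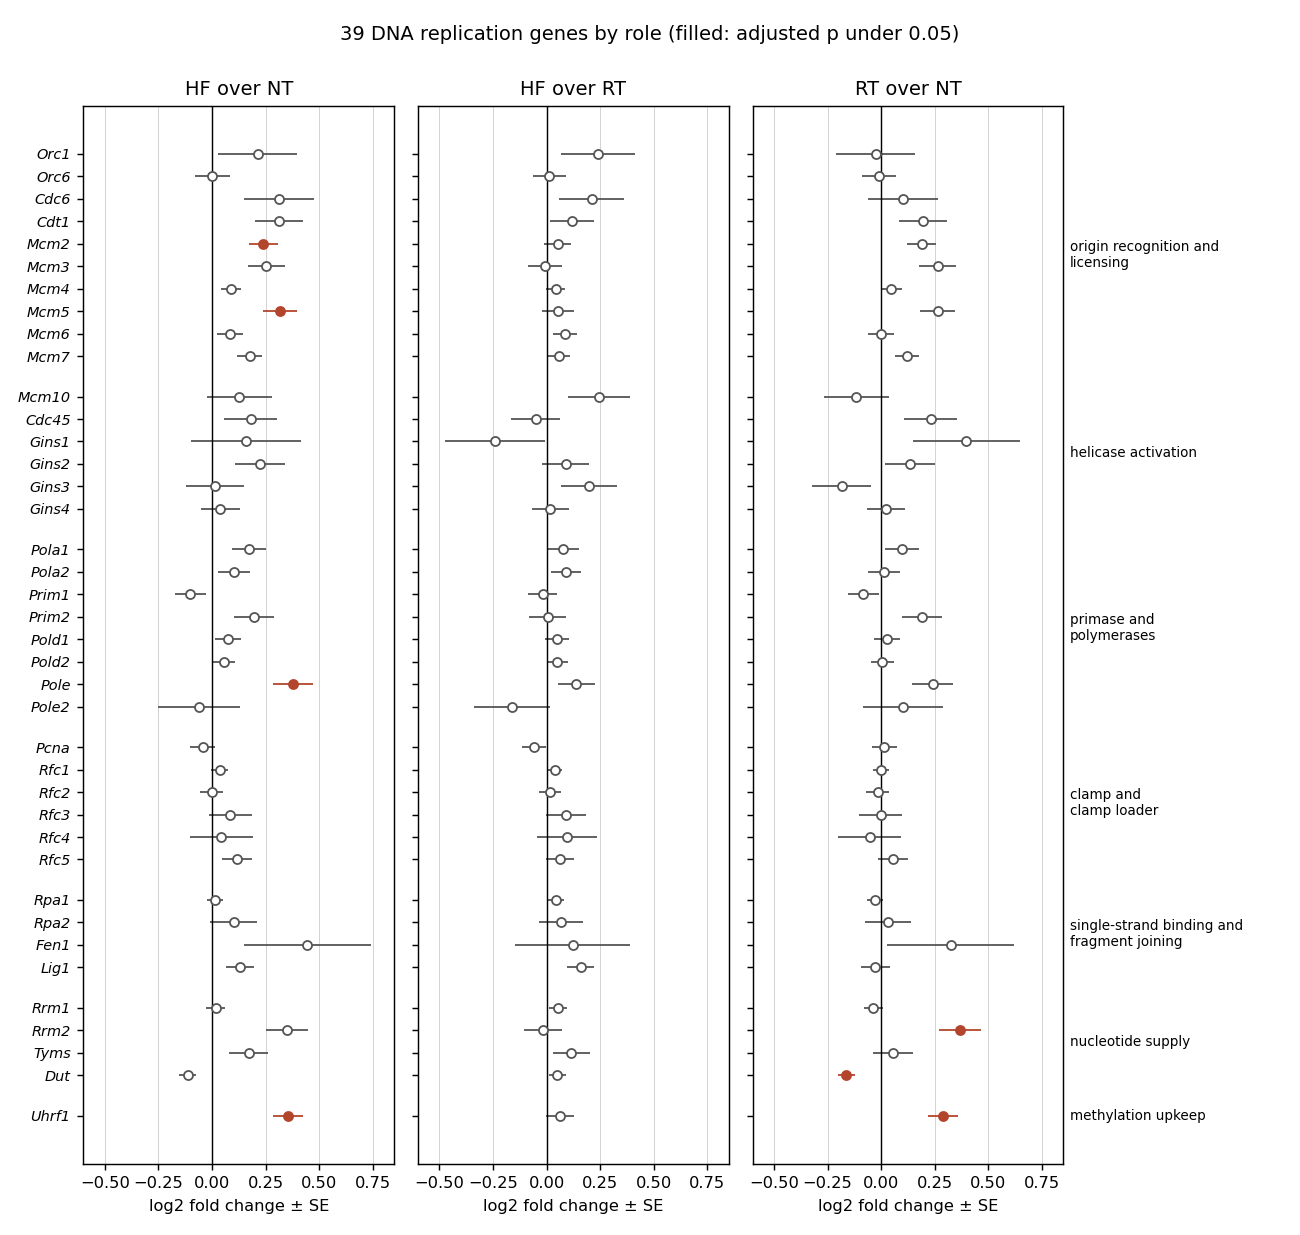
Log2 fold change with its standard error (horizontal axis) of each of the 39 replication genes (rows, grouped by role) in 3 panels, HF over NT, HF over RT and RT over NT, from the edgeR fit of 6, 6 and 5 libraries. Filled points passed an adjusted p of 0.05: Mcm2, Mcm5, Pole and Uhrf1 on HF over NT, none on HF over RT, and Rrm2, Uhrf1 and Dut (below 0) on RT over NT.

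Promoter sequences of the members that changed are shown because E2F factors and the CCAAT-binding factor NF-Y are the textbook regulators of this gene class. Each is the RefSeq window on GRCm38.p6 from 250 bases before to 50 bases from the annotated start, a build earlier than the one used for the counts, and is printed 5′ to 3′ on the gene's strand. The E2F consensus was searched as 4 words, TTTCCCGC, TTTCGCGC, TTTGCCGC and TTTGGCGC, on both strands, and CCAAT likewise. Capitals mark these words, read forward or as their reverse complement.
Mcm2 (chr6:88898731-88899030, minus strand): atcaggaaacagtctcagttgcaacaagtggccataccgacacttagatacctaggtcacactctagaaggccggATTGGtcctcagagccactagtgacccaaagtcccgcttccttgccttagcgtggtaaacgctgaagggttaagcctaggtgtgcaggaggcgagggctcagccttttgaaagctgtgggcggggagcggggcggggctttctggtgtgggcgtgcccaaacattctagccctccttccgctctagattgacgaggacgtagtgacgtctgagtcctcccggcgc
Mcm5 (chr8:75109259-75109558, plus strand): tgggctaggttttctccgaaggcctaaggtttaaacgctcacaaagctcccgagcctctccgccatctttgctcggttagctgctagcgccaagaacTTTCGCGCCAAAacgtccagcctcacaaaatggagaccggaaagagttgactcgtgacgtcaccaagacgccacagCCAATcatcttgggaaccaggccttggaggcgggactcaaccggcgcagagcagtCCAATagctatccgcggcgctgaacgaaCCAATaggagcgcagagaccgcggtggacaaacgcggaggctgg
Uhrf1 upstream start (chr17:56303087-56303386, plus strand): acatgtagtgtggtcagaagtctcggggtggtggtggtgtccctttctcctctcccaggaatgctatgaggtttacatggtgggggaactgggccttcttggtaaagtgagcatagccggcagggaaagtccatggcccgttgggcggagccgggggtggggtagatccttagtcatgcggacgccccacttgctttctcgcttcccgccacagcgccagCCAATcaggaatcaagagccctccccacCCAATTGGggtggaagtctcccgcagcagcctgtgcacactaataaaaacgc
Uhrf1 downstream start (chr17:56304063-56304362, plus strand): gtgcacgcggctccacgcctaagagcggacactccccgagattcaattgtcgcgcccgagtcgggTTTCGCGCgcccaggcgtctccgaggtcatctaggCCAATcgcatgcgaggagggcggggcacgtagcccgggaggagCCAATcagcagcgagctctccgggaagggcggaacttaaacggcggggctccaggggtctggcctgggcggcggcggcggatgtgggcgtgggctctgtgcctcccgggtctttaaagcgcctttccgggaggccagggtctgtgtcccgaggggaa
Rrm2 (chr12:24708004-24708303, plus strand): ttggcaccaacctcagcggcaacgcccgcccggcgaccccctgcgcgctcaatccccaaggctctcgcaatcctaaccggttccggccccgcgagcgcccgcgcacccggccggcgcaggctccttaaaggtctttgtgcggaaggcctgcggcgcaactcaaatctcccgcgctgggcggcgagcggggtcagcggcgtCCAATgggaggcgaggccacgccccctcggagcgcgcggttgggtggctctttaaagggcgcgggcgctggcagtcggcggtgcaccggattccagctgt
Dut (chr2:125247265-125247564, plus strand): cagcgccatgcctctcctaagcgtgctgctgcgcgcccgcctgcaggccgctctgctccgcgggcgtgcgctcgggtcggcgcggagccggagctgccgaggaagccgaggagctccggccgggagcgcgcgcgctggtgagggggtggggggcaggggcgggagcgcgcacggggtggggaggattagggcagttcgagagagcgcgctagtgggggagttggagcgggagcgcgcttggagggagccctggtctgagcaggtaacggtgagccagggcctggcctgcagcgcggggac
Mcm5 and the downstream Uhrf1 start hold an E2F word, and Mcm2, Rrm2, Dut and the upstream Uhrf1 start hold none. In Mcm5, TTTCGCGC on the gene's strand and TTTGGCGC on the other strand overlap, between bases -153 and -142 from the start. CCAAT stands 3 times in Mcm5, and Dut has none of the words searched. Pole has no window in the table.

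Among members as a whole, 32 of 39 had at least 1 promoter window, and 14 of those 32 (43.8%) held an E2F word. The share was 2.6% over all 27025 genes with a window and 4.64% over the 10281 tested genes with a window. Of the 9 licensing genes with a window 7 held the word, as did Uhrf1, the 1 member of its role, and 0 of the 4 nucleotide-supply genes did. CCAAT was in 21 of the 32 (65.6%), against 41.1% of all genes with a window. The median log2 fold change on HF against NT was 0.17 for the 14 members with an E2F word, 0.078 for the 18 whose windows lacked it and 0.16 for the 7 with no window. A match describes letters in the window and does not show that a factor binds there.

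Licensing was the largest role, with 10 genes. On HF against NT 2 of them rose, Mcm2 and Mcm5, where 1.5% of all genes rose. Both calls were lost when some single libraries were left out, as given below. All 10 were positive, where 49% of all genes were, and 5 had an unadjusted p under 0.05, where 14.2% of all genes did. Their median log2 fold change was 0.23 on HF against NT, 0.11 on RT against NT and 0.056 on HF against RT. Against NT, 7 of 10 were positive on RT, where 49.1% of all genes were, and 0 passed the threshold. At an unadjusted p under 0.05 there were 4, where 17.1% of all genes were.

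Mcm2 is a subunit of the replicative helicase ring. It had a lowest, median and highest value of 35.5, 40.1 and 45.9 CPM on HF and of 37.4, 38.3 and 46.3 CPM on RT. The NT libraries held 29.7, 36.0, 34.5, 37.2 and 36.0 CPM. All 6 RT libraries lay above all 5 NT libraries, by a narrow margin at the nearest pair, whereas 1 HF library, number 6, lay within the NT range. In the RT comparison 2.18% of all genes had all RT libraries above all NT libraries, and Mcm2 was the only member to do so. On HF against NT no member did, where 1.25% of all genes had every HF library above every NT library. Mcm2 rose on HF with a log2 fold change of 0.24 ± 0.07 (SE, edgeR adjusted p = 0.0476), and on RT its value was 0.19 ± 0.07 (edgeR adjusted p = 0.116). The HF call was lost when any of NT 1, NT 2, NT 3 or HF 1 to HF 5 was left out (edgeR adjusted p 0.0507 to 0.131) and held without NT 4, NT 5 or HF 6. It was also lost with limma voom (adjusted p = 0.0717), with only HF and NT in the edgeR fit (0.0684) and with total counts in place of TMM (0.0524). With no filter on low counts the RT value passed (edgeR adjusted p = 0.0289).

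Mcm5, another ring subunit, had a lowest, median and highest value of 17.7, 21.4 and 23.3 CPM on HF and of 17.03, 20.4 and 22.2 CPM on RT. On NT the values were 14.3, 18.8, 16.3, 16.1 and 18.8 CPM. Of the HF libraries 5 lay above the highest NT library, and HF 6 lay within the NT range. It rose on HF (log2 fold change 0.32 ± 0.08, edgeR adjusted p = 0.0266), and on RT its value was 0.26 ± 0.08 (edgeR adjusted p = 0.0602). Leaving out NT 1, NT 3, NT 4, HF 3, HF 4 or HF 5 ended the HF call (edgeR adjusted p 0.0564 to 0.0912). Leaving out NT 2, NT 5 or RT 2 brought the RT value past the threshold, at 0.0363, 0.0232 and 0.0297, as did DESeq2 (0.0374) and edgeR with no filter (0.0197). With only HF and NT in the edgeR fit the HF value did not pass (adjusted p = 0.0532).

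The other ring subunits did not pass the threshold. Across Mcm2 to Mcm7 the log2 fold change ran from 0.084 to 0.32 on HF against NT and from -0.0017 to 0.26 on RT against NT, with Mcm6 lowest in each. Mcm3 had values of 0.25 ± 0.09 on HF and 0.26 ± 0.08 on RT (edgeR adjusted p = 0.12 and 0.0755), and Mcm7 had 0.18 ± 0.06 and 0.12 ± 0.06 (0.105 and 0.28). Mcm4, the subunit with the highest level per kilobase, differed by 0.089 ± 0.05 on HF and 0.047 ± 0.05 on RT. The ring is built from equal numbers of each subunit, but the mRNA levels spread from 4.22 to 15.3 CPM per kilobase of exon on NT.

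Cdc6, the ATPase that helps load the ring, was scarce. It had 3.45, 4.06 and 5.84 CPM as lowest, median and highest value on HF and 2.97, 3.6 and 4.93 CPM on RT. NT libraries 1 to 5 gave 2.72, 3.93, 3.27, 3.18 and 4.4 CPM, so the 3 groups overlapped. The log2 fold change was 0.31 ± 0.16 on HF against NT and 0.10 ± 0.16 on RT against NT (edgeR adjusted p = 0.385 and 0.819). Its partner Cdt1 had 0.31 ± 0.11 and 0.20 ± 0.11 (edgeR adjusted p = 0.149 and 0.393). The origin-binding subunits Orc1 and Orc6 had 0.21 ± 0.18 and 0.0015 ± 0.08 on HF against NT, and neither passed the threshold in any comparison.

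Helicase activation, the step of Cdc45, the GINS proteins and Mcm10, gave 0 members past the threshold, and 0 at an unadjusted p under 0.05, in any comparison. All 6 genes were positive on HF against NT, with a median log2 fold change of 0.14, and 4 of 6 were positive on RT against NT. Mcm10 had 3.28, 4.15 and 5.48 CPM as lowest, median and highest value on HF and 2.48, 3.78 and 4.1 CPM on RT. The 5 NT values were 3.71, 3.52, 3.7, 3.53 and 5.1 CPM, with library 5 apart from the other 4. Its log2 fold change was 0.24 ± 0.14 on HF against RT, 0.13 ± 0.15 on HF against NT and -0.12 ± 0.15 on RT against NT. Cdc45 had 0.18 ± 0.13 on HF against NT and 0.23 ± 0.12 on RT against NT. Gins1, with a mean of 1.4 to 1.85 CPM per surface, had the widest error of these genes, 0.16 ± 0.26 on HF against NT. Gins2 shared 67.3% of its exon bases with Gse1 on the opposite strand, and these libraries do not keep strand, so its count may hold reads of that gene.

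Primase and the polymerases gave 1 member past the threshold. Of 8 genes 6 were positive on HF against NT and 7 on RT against NT, and only Pole, the catalytic subunit of the leading-strand polymerase epsilon, rose. Pole had 12.6, 14.8 and 18.5 CPM as lowest, median and highest value on HF and 11.7, 13.9 and 14.9 CPM on RT. The NT libraries held 10.9, 10.02, 12.6, 12.4 and 11.8 CPM. HF 2 and HF 5 fell just within the NT range and the other 4 HF libraries lay above it. The log2 fold change was 0.38 ± 0.09 on HF against NT (edgeR adjusted p = 0.0238) and 0.24 ± 0.09 on RT against NT (0.168). The call was lost without NT 2, HF 3 or HF 4 (edgeR adjusted p 0.0812, 0.0855 and 0.0831), with limma voom (0.055) and with only HF and NT in the edgeR fit (0.0574). Pole2, the accessory subunit of the same enzyme, had -0.059 ± 0.19 on HF against NT and 0.10 ± 0.19 on RT against NT.

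Pola1, the catalytic subunit of polymerase alpha that extends the primers, had 16.1, 18.7 and 20.1 CPM as lowest, median and highest value on HF and 16.2, 17.6 and 19.2 CPM on RT. On NT the values were 15.6, 17.9, 19.9, 14.9 and 14.1 CPM, a wider spread than on either relief. Its log2 fold change was 0.17 ± 0.08 on HF against NT and 0.095 ± 0.08 on RT against NT (edgeR adjusted p = 0.313 and 0.617). The primase subunits pointed opposite ways without passing the threshold: Prim2, the large subunit, had 0.20 ± 0.09 and Prim1, the catalytic small subunit, had -0.10 ± 0.07 on HF against NT. The lagging-strand polymerase subunits Pold1 and Pold2 had 0.076 ± 0.06 and 0.055 ± 0.05 on HF against NT.

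The clamp and its loader had small fold changes. Of 6 genes 4 were positive on HF against NT and 2 on RT against NT, with medians of 0.040 and -0.0018, and 0 passed the threshold or an unadjusted p under 0.05 in any comparison. Pcna, the sliding clamp and a common marker of cycling cells, had 33.4, 37.3 and 38.8 CPM as lowest, median and highest value on HF and 34.3, 38.1 and 41.5 CPM on RT. NT libraries 1 to 5 gave 33.4, 36.7, 38.8, 35.9 and 43.2 CPM, and the 3 groups overlapped. Its log2 fold change was -0.043 ± 0.06 on HF against NT and 0.014 ± 0.06 on RT against NT (edgeR adjusted p = 0.814 and 0.942), and its sign turned when NT 5 was left out of the HF comparison (0.012) or NT 1, NT 4 or RT 5 of the RT comparison (-0.025, -0.0024 and -0.014). In GENCODE transcripts 17.8% of Pcna's 100-base windows also occur in the pseudogene Pcna-ps2. Rfc1, the large loader subunit, was measured most tightly of the 6, with 0.036 ± 0.04 on HF against NT. The small loader subunits ran from -0.0005 for Rfc2 to 0.12 for Rfc5.

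Single-strand binding and fragment joining gave 0 members past the threshold and 1, Lig1, at an unadjusted p under 0.05. Lig1, the ligase that seals fragments, had the smallest p of all members on HF against RT. It held 26.7, 30.0 and 31.7 CPM as lowest, median and highest value on HF and 23.4, 26.9 and 28.2 CPM on RT. The 5 NT values were 23.9, 27.2, 28.4, 24.2 and 30.7 CPM. HF 2 and HF 6 lay within the RT range and the other 4 HF libraries lay above it. The log2 fold change was 0.16 ± 0.06 on HF against RT (edgeR adjusted p = 0.452, unadjusted p = 0.0168 in the fit over all genes), 0.13 ± 0.07 on HF against NT and -0.028 ± 0.07 on RT against NT. It was the only member at an unadjusted p under 0.05 on HF against RT, where 3.74% of all genes were higher and 4.26% lower at that level. In no member did all HF libraries lie above or below all RT libraries, where 0.447% and 0.52% of all genes did. Neither DESeq2 nor limma voom called a member in that comparison.

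Rpa1 and Rpa2, subunits of the protein that coats single-stranded DNA, had 0.015 ± 0.04 and 0.10 ± 0.11 on HF against NT. Fen1, the flap nuclease, had the largest positive value of all members on HF against NT, 0.45 ± 0.30, and also the fewest reads, with means of 0.829 CPM on HF, 0.768 CPM on RT and 0.605 CPM on NT. Its raw counts began at 6 reads, and 84.2% of its exon bases overlap Gm10143 and Tmem258 on the opposite strand, so neither its level nor its change can be read as that of Fen1 alone.

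Nucleotide supply held the only member that fell. Rrm2, the small subunit of ribonucleotide reductase whose level rises in S phase, had 17.7, 22.7 and 30.1 CPM as lowest, median and highest value on HF and 19.3, 23.8 and 25.3 CPM on RT. The NT libraries held 15.9, 19.0, 17.3, 19.6 and 18.3 CPM. RT 2 and HF 6 lay within the NT range, and the other 5 libraries of each relief lay above it. Rrm2 rose on RT against NT (log2 fold change 0.37 ± 0.10, edgeR adjusted p = 0.0314), and on HF against NT its value was 0.35 ± 0.10 (edgeR adjusted p = 0.0571). Between the reliefs it differed by -0.018 ± 0.09, and that sign turned without RT 3, HF 2 or HF 6. The RT call was lost without NT 1, NT 3, NT 5, RT 1, RT 3 or RT 4 (edgeR adjusted p 0.0538 to 0.0904), and the HF value passed without HF 2 or HF 6 (0.0497 and 0.00556), with DESeq2 (0.0162) and with no filter (0.000232). Rrm1, the large subunit, had 0.017 ± 0.04 on HF and -0.038 ± 0.04 on RT against NT.

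Dut removes dUTP from the nucleotide pool and was the member with the highest level per kilobase. It had 67.8, 74.7 and 76.8 CPM as lowest, median and highest value on HF and 67.7, 70.7 and 75.3 CPM on RT. On NT the values were 82.5, 77.1, 78.2, 76.6 and 83.0 CPM. All 6 RT libraries lay below all 5 NT libraries, which 1.22% of all genes did, and on HF 1 library reached into the NT range. Dut fell by 0.16 on the log2 scale on RT against NT (SE 0.04, edgeR adjusted p = 0.0139), and on HF against NT its value was -0.11 ± 0.04 (edgeR adjusted p = 0.149). The RT call held with each library left out in turn, at an adjusted p of 0.0104 to 0.0417.

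Tyms, which makes the thymidine precursor dTMP, had 14.1, 17.96 and 20.3 CPM as lowest, median and highest value on HF and 14.7, 16.5 and 17.2 CPM on RT. NT libraries 1 to 5 gave 13.2, 20.0, 14.9, 15.8 and 14.8 CPM, so NT 2 was above every relief library except HF 4. The log2 fold change was 0.17 ± 0.09 on HF against NT and 0.056 ± 0.09 on RT against NT (edgeR adjusted p = 0.407 and 0.83). Rrm2, Tyms and Dut, enzymes of one supply route, thus had values of 0.37, 0.056 and -0.16 on RT against NT.

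Uhrf1 binds DNA methylated on one strand and brings the methyltransferase Dnmt1 to newly copied DNA. It was the only member past the threshold on both reliefs. Uhrf1 had 25.99, 30.7 and 36.1 CPM as lowest, median and highest value on HF and 25.9, 29.9 and 33.1 CPM on RT. The 5 NT values were 26.1, 24.3, 24.2, 23.8 and 23.3 CPM. HF 6 and RT 2 lay just under NT 1, the highest NT library, and the other 5 libraries of each relief lay above all NT libraries. Uhrf1 rose on HF (log2 fold change 0.35 ± 0.07, edgeR adjusted p = 0.00316) and on RT (0.29 ± 0.07, edgeR adjusted p = 0.0121). The values on the 2 reliefs differed by 0.063 ± 0.07 (edgeR adjusted p = 0.895). With each library left out in turn the adjusted p stayed between 0.000488 and 0.0143 on HF and between 0.0056 and 0.0441 on RT. Dnmt1 itself had 0.084 ± 0.04 on HF and 0.0044 ± 0.04 on RT against NT (edgeR adjusted p = 0.39 and 0.979), and is named here because Uhrf1 recruits it, chosen after its values were seen.

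**Figure D2:**
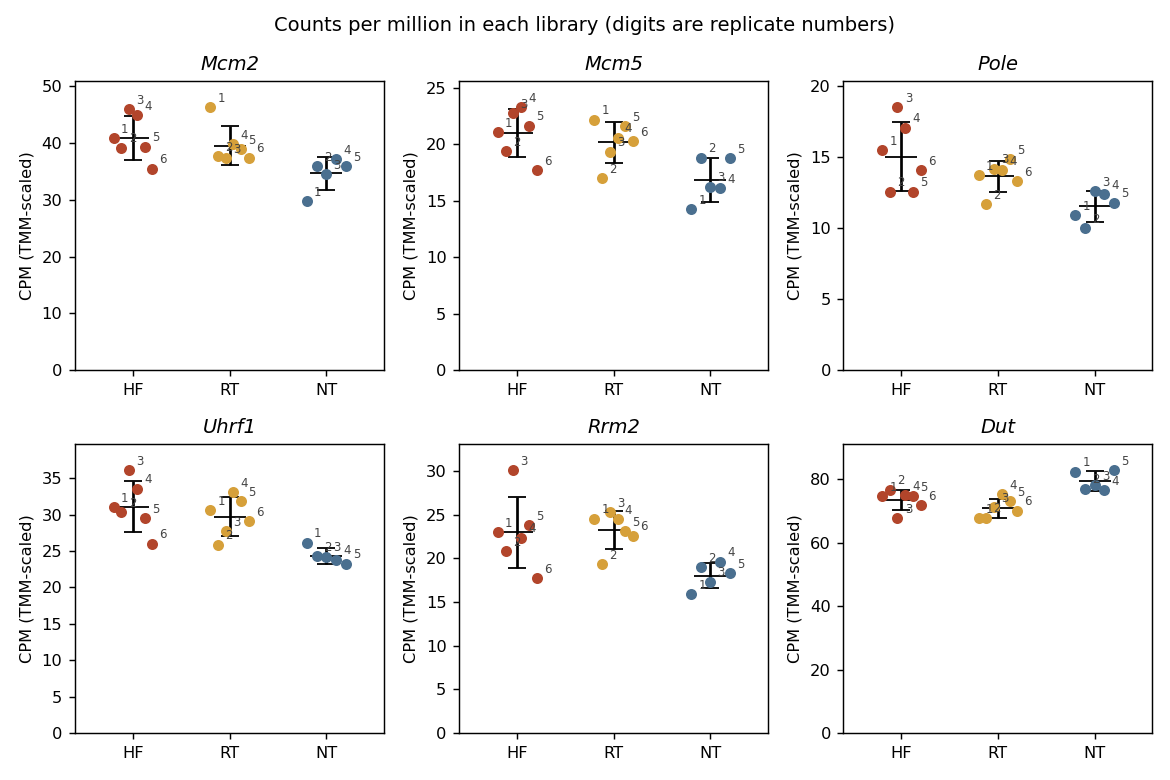
CPM (vertical axis, from 0) in each library of HF, RT and NT for the 6 replication genes past the threshold in at least 1 comparison; points are libraries with their replicate numbers, and bars are means with SD (n = 6, 6 and 5). HF 3 and HF 4 lie high and HF 6 low for Mcm2, Mcm5 and Uhrf1, and all RT libraries of Dut lie below all NT libraries.

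The plot of adjusted p-values with each library left out shows how far these calls depended on single libraries. On HF against NT, 1 member was called without HF 3 and 1 without HF 4, Uhrf1 in each case. Without HF 6 there were 7 called members, with Mcm3, Mcm7 and Rrm2 added. With NT 1, NT 2, NT 3 or HF 5 left out there were 2. On RT against NT the count ran from 2 to 5, with Mcm3 and Mcm5 added when NT 2 was left out.

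**Figure D3:**
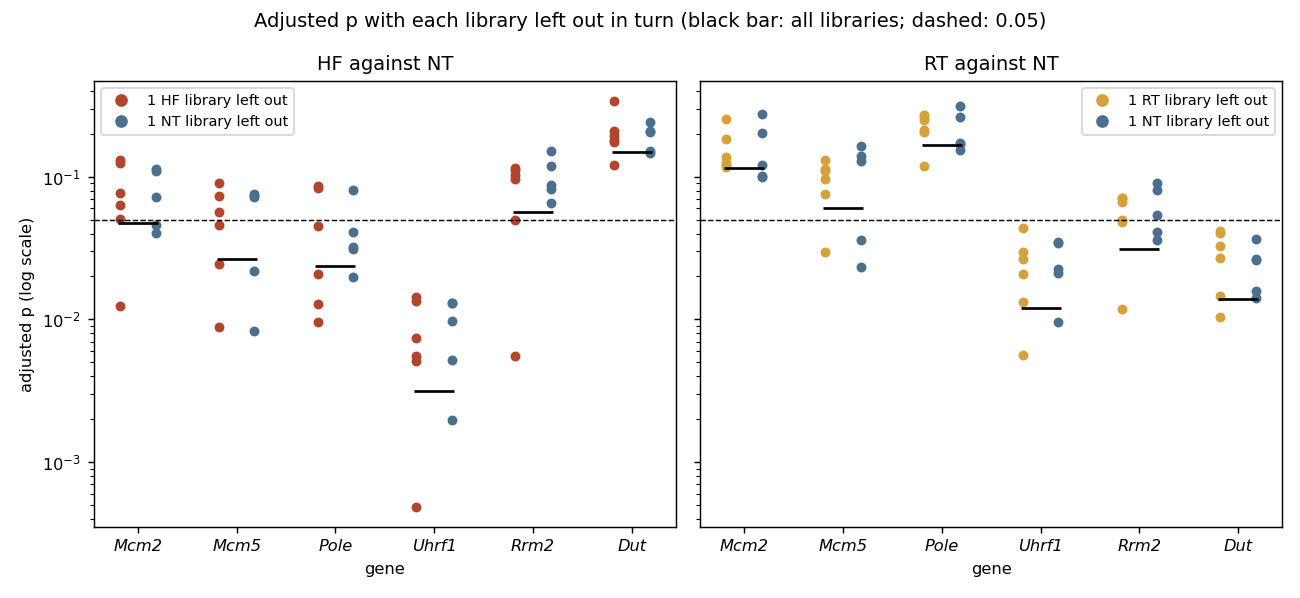
Adjusted p from edgeR (vertical log axis) of the 6 genes past the threshold in at least 1 comparison, with each library left out in turn, for HF against NT and RT against NT; the black bar is the value with all libraries and the dashed line is 0.05. Uhrf1 stays under the line in both panels and Dut in the RT panel, whereas Mcm2, Mcm5, Pole and Rrm2 cross it.

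The average of the set differed most among the HF libraries. Each gene's log2 CPM was set against its own mean over the 17 libraries and the 39 deviations were averaged. The average was 0.082, -0.0079, 0.17, 0.15, 0.0026 and -0.049 for HF 1 to HF 6. It lay between -0.071 and 0.073 for the RT libraries. The NT libraries had -0.13, -0.053, -0.094, -0.14 and 0.047. HF 3 and HF 4 stood highest, with 34 and 35 of the 39 genes above their own mean, HF 6 had 10 above, and NT 5 stood above the other NT libraries with 24. Summed over the 39 genes, the libraries held 997 ± 49.4 CPM on HF, 963 ± 21.9 CPM on RT and 940 ± 32.8 CPM on NT (SD, n = 6, 6 and 5).

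Like the replication genes, the 18 mitosis markers were highest in HF 3. They were lowest in HF 6, whereas the replication genes were lowest in NT 4 (-0.14). The average deviation of the mitosis markers was 0.39 in HF 3, 0.25 in HF 4 and -0.33 in HF 6, and it was -0.29 to 0.034 on NT. Their summed level ran from 228 to 356 CPM on HF, 273 to 310 CPM on RT and 235 to 273 CPM on NT. All 18 were positive on HF against NT and on RT against NT, with medians of 0.23 and 0.19. In each 2 rose (11.1%), Ccnb1 and Cenpe on HF and Cenpe and Nusap1 on RT, where 1.5% and 2.53% of all genes rose. At an unadjusted p under 0.05 in edgeR, 10 were higher on HF (55.6%) and 7 on RT (38.9%). The shares were 25.6% and 20.5% of the 39 replication genes, and 7.61% and 9.11% of all genes. The part of dividing cells in the replication gene values was not tested.

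Among the markers of the podocyte and other kidney cell types, 5 genes also moved in the comparisons in which replication genes changed. Acta2, the smooth muscle actin, rose on both reliefs, with a log2 fold change of 0.48 on HF (edgeR adjusted p = 0.0171) and 0.48 on RT (0.0121) against NT. On each relief all libraries lay above all NT libraries, as for 1.25% of all genes on HF and 2.18% on RT. The sum of the 4 mesangium and smooth muscle markers ran from 804 to 879 CPM on HF, 774 to 852 CPM on RT and 676 to 771 CPM on NT, while 2 of the 4, Des and Itga8, stayed under 1 CPM in every library. Csf1r, the receptor of a macrophage growth factor, rose on RT against NT (0.36, edgeR adjusted p = 0.00385), and on HF its value was 0.22 (0.124). The 4 macrophage markers summed to 41.0 to 55.4 CPM on HF, 47.0 to 59.3 CPM on RT and 38.1 to 43.1 CPM on NT, nearly all of it Csf1r, and Adgre1 was at 0 in every library. Wt1, a podocyte transcription factor, fell by 0.16 on HF (edgeR adjusted p = 0.0113) and by 0.24 on RT (6.16e-05) against NT. Actn4, an actin crosslinker of podocyte foot processes, rose on HF (0.13, edgeR adjusted p = 0.0285), and the tight junction gene Cldn1, of the parietal epithelium list, fell by 0.21 on RT (0.0157). The summed podocyte markers ran from 1323 to 1385 CPM on HF, 1342 to 1394 CPM on RT and 1303 to 1362 CPM on NT. Actn4 gave the largest part of that sum, with means of 671, 654 and 615 CPM on HF, RT and NT. The sum therefore does not show the fall of Wt1. The part of these shifts in the replication gene values was not tested.

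**Figure D4:**
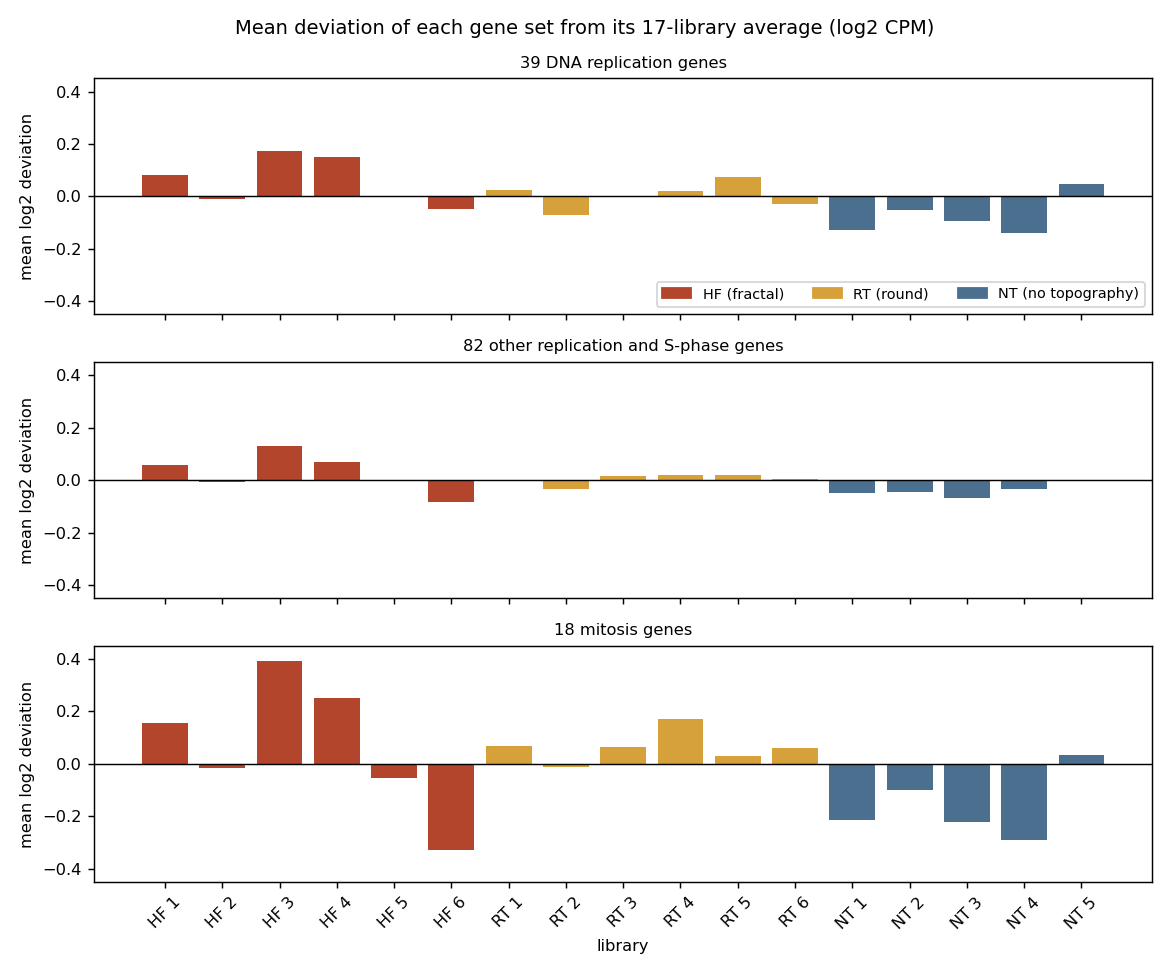
Mean deviation of log2 CPM from each gene's 17-library average (vertical axis) in every library, for the 39 replication genes, 82 other replication and S-phase genes and 18 mitosis markers; bars are libraries, HF left, RT middle and NT right. HF 3 and HF 4 are high and HF 6 is the lowest HF library in all 3 panels, with the widest range for the mitosis markers.

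The rest of the replication and S-phase pathway was read from a list of 82 other genes, all matched and all tested. Of these 2 rose and 0 fell on HF against NT (2.44%, near the 2.33% of all genes that changed). The edgeR test called 0 on RT against NT, where 14 had an unadjusted p under 0.05 (17.1%, as in all genes), DESeq2 called 2 and limma voom 0. Between the reliefs all 3 tools called 0, with 7 at an unadjusted p under 0.05 in edgeR (8.54%, where 8% of all genes were). The fold change was positive for 56 of 82 on HF against NT, with a median of 0.036, against 0.12 for the 39 replication genes. Timeless, which holds the helicase and polymerase together at the fork, rose on HF (log2 fold change 0.41 ± 0.11, edgeR adjusted p = 0.0311). It had 8.34, 10.3 and 11.8 CPM as lowest, median and highest value on HF and 8.78, 9.12 and 10.4 CPM on RT, and the NT libraries held 5.75, 8.19, 8.16, 7.88 and 8.39 CPM. All RT libraries and 5 of the 6 HF libraries lay above every NT library. Every RT library lay above every NT library in 6.1% of the 82 genes and 2.18% of all genes.

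Recql4, a helicase that acts when origins fire, also rose on HF (log2 fold change 0.69 ± 0.19, edgeR adjusted p = 0.0399), with 0.58 ± 0.19 on RT (0.0738). It had 2.07, 2.43 and 2.8 CPM as lowest, median and highest value on HF and 1.84, 2.23 and 2.75 CPM on RT, and the NT libraries held 1.42, 1.35, 1.18, 1.76 and 1.8 CPM. All libraries of each relief lay above all NT libraries. On HF this held for 1.22% of the 82 genes and 1.25% of all genes, and on RT for 6.1% and 2.18%. The counts of Recql4 were low, 20 to 53 reads per library. Leaving out NT 1, NT 3, NT 4, HF 2, HF 3 or HF 4 ended the Timeless call (edgeR adjusted p 0.0544 to 0.0944), and leaving out NT 1, NT 2, NT 3 or HF 1 to HF 5 ended the Recql4 call (0.0511 to 0.136). With only HF and NT in the edgeR fit neither passed (0.0737 and 0.0701), nor did Timeless with limma voom (0.0548) or Recql4 with no filter (0.0774).

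Among regulators of S-phase entry, 0 of 25 passed edgeR's threshold in any comparison, with 4 at an unadjusted p under 0.05 on HF and 5 on RT against NT, and 2 between the reliefs. Of all genes, 14.2% were at that level on HF against NT, 17.1% on RT against NT and 8% between the reliefs, so these counts lay near the background. E2f1, the activator whose words are searched above, had a log2 fold change of -0.12 ± 0.05 on HF against NT (edgeR adjusted p = 0.199). It had 40.1, 42.6 and 42.9 CPM as lowest, median and highest value on HF and 42.2, 43.4 and 47.5 CPM on RT, and the NT libraries held 44.2, 45.2, 44.2, 45.8 and 49.8 CPM. All HF libraries lay below all NT libraries, as 0.934% of all genes did. The S-phase cyclins Ccne1 and Ccne2 had 0.27 ± 0.16 and 0.13 ± 0.11 on HF and 0.33 ± 0.16 and -0.038 ± 0.11 on RT against NT. Top2a, which untangles copied DNA, had 0.26 ± 0.10 on HF and 0.23 ± 0.10 on RT (edgeR adjusted p = 0.239 and 0.256). Without HF 6 its HF value passed the threshold (0.33, edgeR adjusted p = 0.0307), as did its RT value with only RT and NT in the fit (0.0171). All RT libraries of Top2a lay above all NT libraries (lowest RT 52.1 CPM, highest NT 51.4 CPM), as in 6.1% of the 82 genes and 2.18% of all genes.

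Levels of the 39 genes were compared per kilobase of annotated exon. On NT they ran from 0.25 CPM per kilobase for Fen1 to 33.0 for Dut. Most exon bases of Fen1 overlap other genes, so its value cannot be read as that of Fen1 alone. Above 10 on NT stood Dut, Pold2, Pcna, Mcm4, Rpa1, Rfc1 and Mcm7. The loaders Cdc6 and Orc1 and the activator Mcm10 stood among the lowest, at 0.669, 0.843 and 0.508 CPM per kilobase on NT. The genes that rose on HF had levels from 1.35 CPM per kilobase for Pole to 7.3 for Uhrf1 on HF. The exon length is the union over all annotated transcripts, so a gene with long rare exons reads low on this scale.

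**Figure D5:**
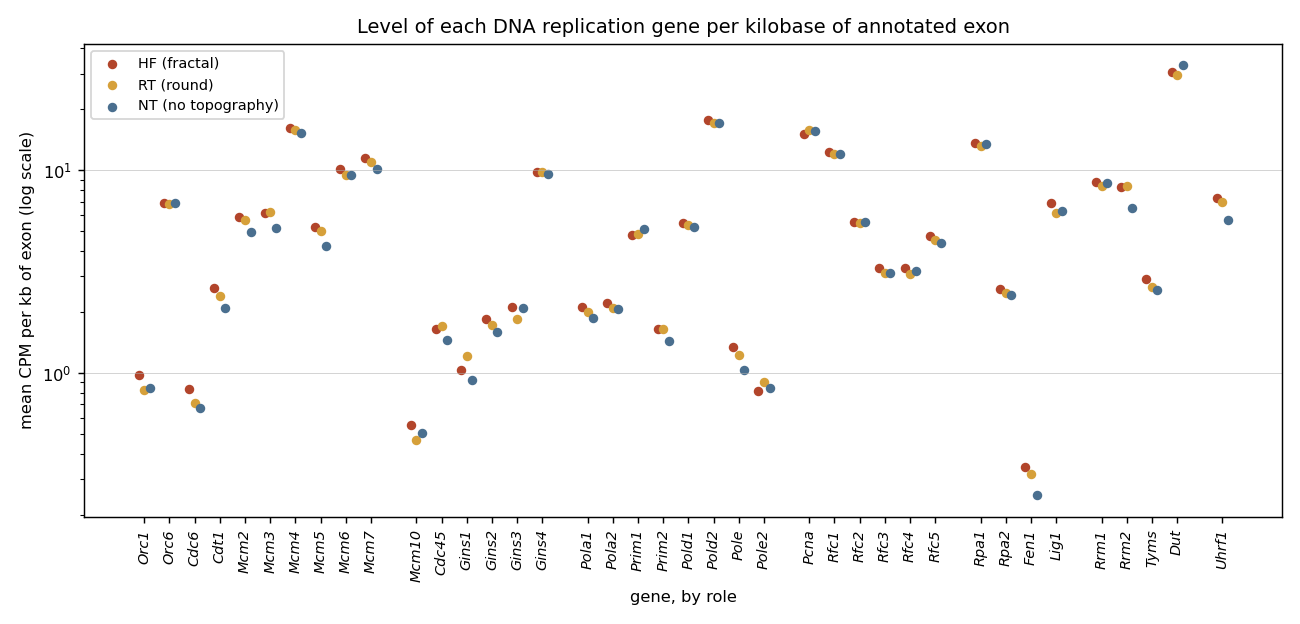
Mean CPM per kilobase of annotated exon (vertical log axis) of the 39 replication genes, grouped by role along the horizontal axis, on HF, RT and NT (n = 6, 6 and 5 libraries). Levels run from 0.25 for Fen1, whose exons overlap other genes, to 33.0 for Dut on NT. The 3 surfaces lie close together beside the spread between genes.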

How the data were processed

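Poly-A RNA of E11 cells was read as non-directional paired-end libraries, per the labels' protocols. The authors deposited a table of unnormalized counts by gene, all whole numbers. CASAVA, HISAT2 2.0.5, featureCounts 1.5.0-p3 and build GRCm39 are named, per the submitters' processing notes. The annotation release, strand setting and handling of reads on overlapping genes are not given in the sources used here, which bears on 8 members that overlap or share at least 10% of their sequence with another gene. Of the table's columns 0 went unused. Symbols and exon lengths came from GENCODE M21, which named 52073 of 56748 identifiers. Kirrel1 of the podocyte markers was not matched.

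Genes were filtered with filterByExpr (minimum count 10), given TMM factors and fitted in edgeR 4.0.16 (quasi-likelihood, robust, R 4.3.3), with 1 mean per surface over all 17 libraries. P-values are two-sided and Benjamini-Hochberg adjusted over 15196 genes, with a threshold of 0.05. The fit was run on simulated data whose fold changes were larger than those of the members called here. Its power for changes of their size was not tested. Common biological variation was 0.0603. The SE of a log2 fold change was taken as its size over the root of its F statistic. CPM used for deviations had a prior count of 2. All 40 pairs of libraries within a surface differed by more than sampling noise (chi-square per degree of freedom 2.59 to 10.8). Depth was 14.9 to 24.1 M counts per library.

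The members and lists were chosen with earlier results of these data known. Members named with per-library values were those past the threshold, the 3 with the smallest p in each comparison, and Mcm2, Cdc6, Pcna, Pola1, Rrm2, Tyms and Uhrf1. From the other list the genes named by rule were those past the threshold, at most 4 per comparison, and E2f1, Ccne1, Ccne2 and Top2a. Of these, Ccne1, Ccne2 and Top2a are given without the value of every library. Alternatives were DESeq2 1.42.0, limma 3.58.1 (voom), RLE scaling, total counts, no filter, a fit of only the compared surfaces, a replicate block, and leaving out each library.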

Additional observations from a re-analysis of the deposited data

Results flagged for a closer look

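In 117 groups of libraries (39 genes on 3 surfaces), 6 held a library whose gap to its nearest neighbour exceeded Dixon's 95% critical value, and chance gives about 1 in 20. Mcm2 read 46.3 CPM in RT 1, with RT 4 next at 39.8. Mcm4 read 53.1 CPM in RT 3, the lowest of its group, with RT 2 next at 56.3. Mcm10 read 2.48 CPM in RT 2, the lowest, with RT 4 next at 3.46, and 5.1 CPM in NT 5, the highest, with NT 1 next at 3.71. Gins1 read 2.3 CPM in HF 6, with HF 1 next at 1.55. Rfc5 read 26.2 CPM in HF 3, with HF 4 next at 22.1.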

How the results depend on the processing

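Replication genes called on HF against NT numbered 4. They numbered 7 with no filter, 2 with limma voom, 1 with only the compared surfaces in the fit and 7 with the replicate block, and 1 to 7 with a library left out. On RT against NT there were 3, with 6 under no filter, 6 with the replicate block and 2 to 5 with a library left out. On HF against RT there were 0 under every alternative run. Of the 82 other genes, 2 were called on HF against NT, with 4 under DESeq2, 1 with limma voom, 0 with only the compared surfaces, 4 with the replicate block and 0 to 5 with a library left out. On RT against NT 0 were called, with 2 under DESeq2, 1 under no filter, 2 with only the compared surfaces, 4 with the replicate block and 0 to 2 with a library left out. On HF against RT 1 was called under no filter. The causes were not tested. Uhrf1 on both reliefs and Dut on RT passed under every alternative run.

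The median of the 39 genes stayed positive with each library left out, at 0.093 to 0.14 on HF against NT, 0.030 to 0.079 on HF against RT and 0.014 to 0.069 on RT against NT. Signs were followed only for the genes named by the rule above. The number of positive members ran from 31 to 37 on HF against NT and from 22 to 32 on RT against NT with a library left out, so signs of other members turned too. Among the named genes, signs that turned were all of genes not past the threshold. Pcna ran from -0.083 to 0.012 on HF against NT (positive without NT 5) and from -0.025 to 0.070 on RT against NT (negative without NT 1, NT 4 or RT 5, at -0.025, -0.0024 and -0.014). Lig1 ran from -0.068 to 0.025 on RT against NT (positive without NT 5 or RT 1, at 0.025 and 0.0016). Rrm2 ran from -0.11 to 0.048 on HF against RT (0.0078, 0.011 and 0.048 without RT 3, HF 2 and HF 6). Ccne1 ran from -0.16 to 0.0042 on HF against RT (positive without HF 6). Ccne2 ran from -0.11 to 0.034 on RT against NT (0.034 and 0.0037 without NT 2 and RT 6). Top2a ran from -0.029 to 0.096 on HF against RT (-0.029 and -0.017 without HF 3 and HF 4).

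The labels do not say what a library's number means. Deviations of the 16 same-numbered pairs were correlated at 0.004 to 0.219 over 1000 genes, with 2 above 0.1, which is too few to treat the numbers as pairing the libraries. With the replicate block, Mcm2 (edgeR adjusted p = 0.0369) and Mcm5 (0.0269) passed on RT against NT and Rrm2 (0.0070) on HF against NT, and calls over all genes on HF against NT numbered 637, against 354 without it. The number term in the fit called 0 of the 39 genes and 1.22% of all genes (4 of 39 at an unadjusted p under 0.05, where 12% of all genes were). Recql4, Mcm10, Gins1, Cdc6, Orc1, Pole2 and Fen1 rest on few reads, so small changes in them may have gone undetected. Power for such changes was not tested.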
